A study of Mus musculus with 6 samples.

Results

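Integrins and laminins are the receptors and the chief ligands by which cells hold on to a basement membrane. This account covers 34 mouse genes, namely 22 integrin subunits, 10 laminin chains and the 2 nidogens, chosen by a rule that lists names of cell-matrix receptors and basement membrane laminins and uses no threshold on the values. They were measured by 85 probes of 60 bases among the 56605 non-control probes of an Agilent 1-colour array, and 32 of the 34 were among the 20737 genes that could be tested. Common bile duct epithelium supplied the RNA, from mice of strain C57BL/6 labelled iFGF10, a name taken here to mean an inducible Fgf10 construct. The DOX+ group (3 samples) drank 0.02% doxycycline, an antibiotic that switches on tetracycline-controlled genes, in water for 5 days, and the DOX- group (3 samples) drank water alone for 5 days. The series design counts 3 mice that overexpress FGF10 and 3 that do not. The sources used here give no age, no promoter for the construct and no cell type in which it acts. The sample descriptions give the DOX- samples names that begin with WT and end in a pair of numbers, so whether they carried the construct and whether each came from 1 mouse cannot be told. Mice without the construct given doxycycline were not analysed here, so the effect of the drug and that of the induced gene cannot be told apart. Nothing in the labels beyond the count of mice says that samples are separate animals, so the p-values take in no more than the spread among these 6 samples, which may be technical.

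An integrin is a pair of an alpha and a beta chain that spans the cell membrane, binds matrix or another cell outside and links to actin or keratin filaments inside. A laminin is a trimer of an alpha, a beta and a gamma chain that assembles into the sheet under an epithelium, where nidogens tie it to collagen IV. In duct epithelium the laminin receptors with beta 1 and beta 4 chains sit on the basal face, other alpha chains serve fibroblasts, vessels and smooth muscle, and a further group is carried by leukocytes.

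Per array, 55.93% to 61.9% of spots were well above background. Of 12 epithelial markers, 10 were well above background on all 6 arrays. The same held for 10 of 10 smooth muscle and pericyte markers, 10 of 10 endothelial markers and 8 of 9 fibroblast markers, so RNA of other cells was present, and fewer cells of a type and less RNA per cell cannot be told apart in such samples. All 3 Fgf10 probes were below that level on every array. Whether they match the induced transcript is not known here, so they do not check the labels. All 6 arrays lay on 1 slide and came from 1 scan. The DOX+ arrays and DOX- replicate 1 shared a slide row. Levels below are log2 intensity relative to the array's 75th percentile (level 0), differences are DOX+ minus DOX- on that log2 scale, and levels of different genes are not compared, since probes differ in brightness.

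The probe sequences behind the main findings are shown here as deposited, in lower case, with positions on mm9. The first pair lies far apart in Lamb1 (chr12:31967514-31967573 and chr12:32012684-32014030, plus strand) and shows that the Lamb1 result rests on separate parts of the transcript. The second spans 1347 genome bases and so crosses an exon boundary.
Lamb1 inner probe: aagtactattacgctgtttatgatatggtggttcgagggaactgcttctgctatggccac
Lamb1 downstream probe: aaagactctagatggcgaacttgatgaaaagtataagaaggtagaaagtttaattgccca
The probe of Lamb2 (chr9:108392189-108392248, plus strand) is shown because this laminin chain differed the other way.
Lamb2 probe: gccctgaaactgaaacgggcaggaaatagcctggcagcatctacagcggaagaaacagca
The Itgb1 pair separates the common form from the beta 1D form, a muscle splice form, as the deposited annotation names it. Capitals mark the longest stretch of 23 bases that both probes share (chr8:131250081-131255976 and chr8:131250931-131255949).
Itgb1 common probe: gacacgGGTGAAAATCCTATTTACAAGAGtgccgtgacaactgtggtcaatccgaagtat
Itgb1 beta 1D probe: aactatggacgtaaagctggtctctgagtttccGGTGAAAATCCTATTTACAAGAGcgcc
The probes of Itgae (chr11:72959105-72960563, plus strand) and Itga2b (chr11:102319453-102319661, minus strand) are shown for the mast cell comparison. Both cross an exon boundary.
Itgae probe: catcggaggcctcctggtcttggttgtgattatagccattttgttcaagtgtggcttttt
Itga2b probe: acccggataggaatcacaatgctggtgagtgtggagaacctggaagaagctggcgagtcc
The first 30 bases of the brighter Itgam probe (chr7:135261755-135261814) are shown because they open with a CA repeat of 20 bases, in capitals.
Itgam probe: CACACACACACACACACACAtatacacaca
Exon, intron and UTR annotation of mm9 was not used here.

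None of the 32 tested members passed the test in either direction (limma, Benjamini-Hochberg adjusted p under 0.05 over all genes), where 8 of all 20737 genes (0.0386%) did. At an unadjusted p under 0.05, 3 members were higher in DOX+ (Lama2, Lamb2 and Lamc3), against 7.02% of all genes, and 2 were lower (Itga6 and Lamb1), against 6.32% of all genes. Groups did not overlap for 3 members higher in DOX+ (Itgae, Lamb2 and Lamc3), where 10.1% of all genes did so, and for 3 lower (Itga6, Lama5 and Lamb1), where 10.9% did. These shares are near those of all genes. Means were higher for 16 members and lower for 16, with a median difference of 0.02 against -0.01 over all genes. Members varied more between samples of a group than genes in general: their median SD was 0.34 in DOX+ and 0.46 in DOX-, against 0.20 and 0.22 over all genes (n = 3). Each of the 16 members with several measurable probes had all of these on 1 side of 0, a count not taken over all genes. Of their dimmer probes left out, those of Itgal, Lama4 and Lamb3 lay on the other side. Those of Itga4, Itga6, Itgb1 and Lama2 lay on the same side. As the plot of differences with their intervals shows, Lamb1 stood lowest, and Itgax, Itgal and Lamb3 had the widest intervals.

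**Figure D1:**
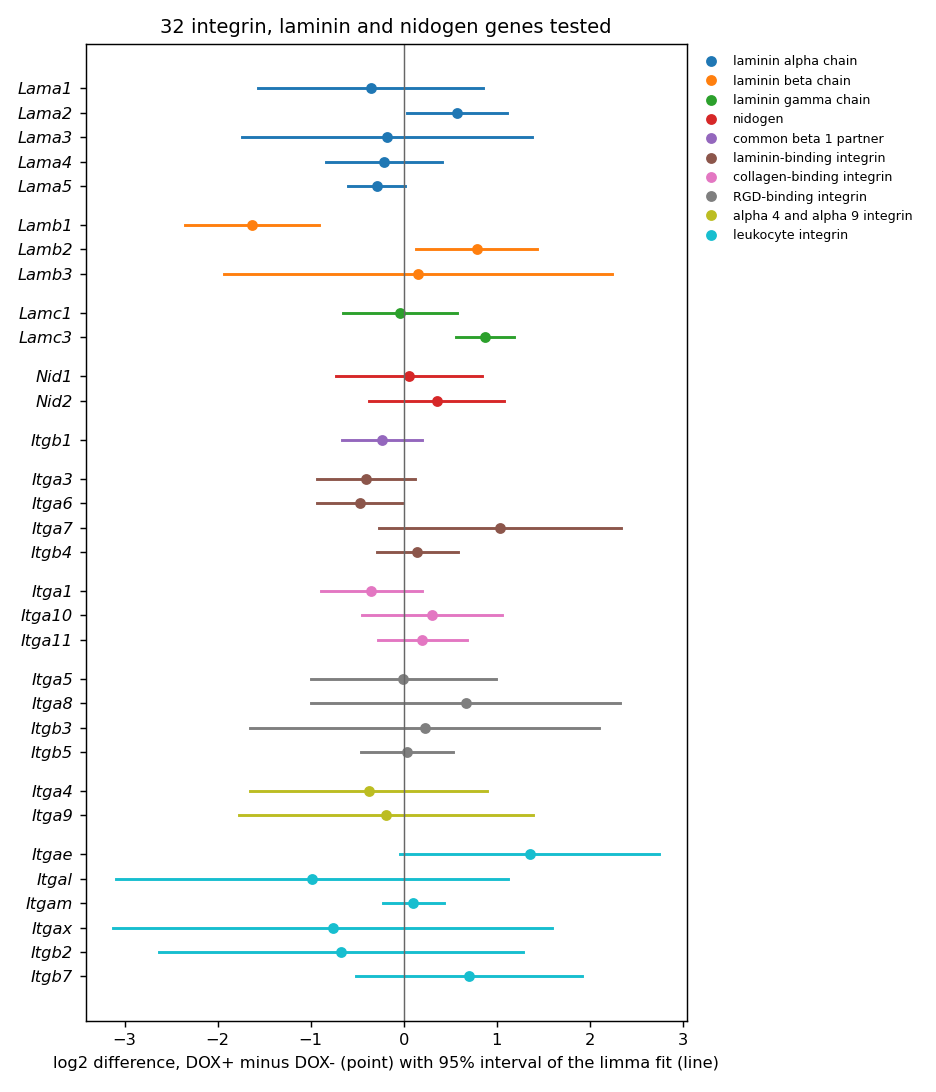
Log2 difference, DOX+ minus DOX-, of the 32 members tested (points) with the 95% interval of the limma fit (lines), coloured by role. The intervals of Lamb1 and Itga6 lie below 0 and those of Lamb2, Lamc3 and Lama2 above it, before any adjustment for the number of genes.

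The laminin chains held the members with the smallest p. Lamb1, the beta chain of most epithelial laminins, had levels of 3.64, 3.33 and 3.63 in DOX+ and 4.70, 4.97 and 5.80 in DOX-. Every DOX+ array lay more than 1 log2 unit below every DOX- array (at most 3.64 against at least 4.70). The difference was -1.63 (SE 0.30, 95% interval -2.35 to -0.91, limma adjusted p = 0.172), rank 167 of 20737 genes by p. All 5 Lamb1 probes were kept, and for each of them all DOX+ arrays lay below all DOX- arrays. From the upstream end their differences were -2.52, -1.80, -2.17, -1.57 and -1.63. The most upstream probe stayed under the well-above-background level on all 3 DOX+ arrays, with group means of -6.11 and -3.58, and gave a fold at least 2.86-fold lower in DOX+. That fold is a lower bound, set against the lowest signal well above background where the probe's own was lower. When probes were tested one by one, the third (chr12:32009200-32009259) passed with a limma adjusted p of 0.042 over 31720 probes, of which 6 (0.0189%) passed as lower. That probe was dim, with group means of -4.60 in DOX+ and -2.43 in DOX-. The other Lamb1 probes did not pass (limma adjusted p = 0.127 to 0.199). Of 238 genes with at least 5 kept probes, 4 (1.68%), Lamb1 included, had every probe lower with no overlap.

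Lamb2, the beta chain that replaces beta 1 in laminins of vessel walls, muscle and nerve, had levels of 1.96, 2.28 and 1.65 in DOX+ and 1.59, 1.21 and 0.74 in DOX-. All DOX+ arrays lay above all DOX- arrays, the nearest pair by a small step (1.65 against 1.59). The difference was 0.79 (SE 0.27, limma adjusted p = 0.317). Lamb3, the beta chain of the laminin that anchors hemidesmosomes, had levels of 2.16, 2.15 and -0.74 in DOX+ and 1.30, 1.63 and 0.16 in DOX-. DOX+ replicate 3 was the lowest array and DOX- replicate 3 the next, and a second probe gave the same order at the low end (1.16, 0.97 and -1.60 against 0.10, 0.45 and -0.94). The difference was 0.16 (SE 0.86), and 1.12 without DOX+ replicate 3 (limma adjusted p = 0.393).

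Lamc3, a gamma chain that is less widespread than gamma 1, had levels of 0.13, 0.23 and 0.29 in DOX+ and -0.51, -0.66 and -0.78 in DOX-. Both groups were tight and lay well apart. The difference was 0.87 (SE 0.13, 95% interval 0.56 to 1.19, limma adjusted p = 0.135), rank 66 by p and from a single probe (chr2:31801996-31802055). Lamc1, the gamma chain of nearly all laminins, had a difference of -0.04 (SE 0.25, 95% interval -0.65 to 0.57) and 0.07 after quantile normalisation. Its 4 probes gave -0.21 to -0.01.

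**Figure D2:**
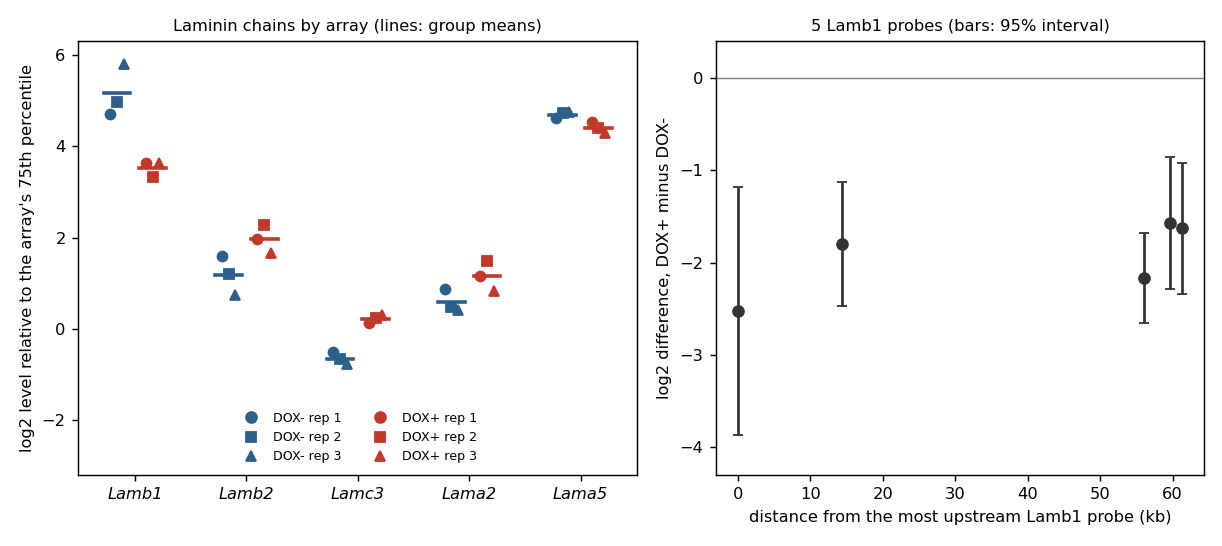
Left, log2 level relative to the array's 75th percentile of the brightest probe of 5 laminin chains on each array (lines are group means, n = 3), and right, the log2 difference of each of the 5 Lamb1 probes against its distance in kb from the most upstream one (bars are 95% intervals). Lamb1 is at 3.33 to 3.64 in DOX+ and 4.70 to 5.80 in DOX-, and its probes lie between -2.52 and -1.57.

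Among the alpha chains, which carry the sites that integrins bind, Lama2, the chain of muscle and nerve basement membranes, had levels of 1.15, 1.50 and 0.83 in DOX+ and 0.87, 0.47 and 0.41 in DOX-. Of the DOX- arrays, replicate 1 lay just above the lowest DOX+ array. The difference was 0.58 (SE 0.22, limma adjusted p = 0.355), and the 4 kept probes gave 0.45 to 0.73. Lama5, the main alpha chain under simple epithelia, had levels of 4.53, 4.40 and 4.29 in DOX+ and 4.61, 4.73 and 4.75 in DOX-. These did not overlap, but the difference was small, -0.29 (SE 0.13, limma adjusted p = 0.387). Lama1, Lama3 and Lama4 had differences of -0.35, -0.18 and -0.21, each with an interval that held 0. Lama3, the alpha partner of Lamb3, was lowest on DOX- replicate 3 (-3.56) and DOX+ replicate 3 (-2.85), against -2.06 to -1.19 on the others. The nidogens overlapped between groups, with differences of 0.06 (SE 0.32) for Nid1 and 0.35 (SE 0.30) for Nid2. For Nid1 the 3 kept probes ranged from 0.06 to 0.94, the higher ones from dim probes, 1 of which had groups that did not overlap.

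Some of these values moved when the slide row was fitted. Since DOX- replicate 1 was the only DOX- array in the row of DOX+, row and sample cannot be told apart. When the row was fitted as a block, so that only DOX- replicate 1 was weighed against DOX+, differences were -1.17 for Lamb1, 0.73 for Lamc3, 0.38 for Lamb2 and 0.29 for Lama2 (limma adjusted p = 0.644, 0.579, 0.890 and 0.908). With arrays weighted by their spread, Lamb1 and Lamc3 passed (limma adjusted p = 0.0256 and 0.0232). This gave DOX- replicate 2 a weight of 6.33, against 0.33 to 1.34 for the others. Beside Lamb1, epithelial markers had lower means in 9 of 10 tested, with summed levels (linear, relative to the 75th percentile) of 521 to 579 in DOX+ and 589 to 806 in DOX-. Their median difference was -0.24, against -1.63 for Lamb1. Cholangiocyte markers had lower means in 7 of 9 tested, with a median of -0.20 and sums that overlapped (227 to 292 in DOX+, 239 to 388 in DOX-). Beside Lamb2, Lamc3 and Lama2, endothelial markers had higher means in 10 of 10, with summed levels of 27.4 to 38.5 in DOX+ and 21.6 to 28.9 in DOX-. All 10 were well above background on all arrays. Means were higher in 7 of 10 smooth muscle and pericyte markers, 4 of 8 fibroblast markers and 3 of 6 Schwann cell and neuron markers tested. The Schwann cell and neuron markers summed to 7.70 to 11.8 in DOX+ and 9.89 to 13.6 in DOX-. The part of these shifts in the laminin values was not tested.

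Of 23 other basement membrane genes, 19 were tested and 0 passed. At an unadjusted p under 0.05 in the limma fit, 1 was higher and 2 lower, against 7.02% and 6.32% of all genes. The collagen IV chains Col4a1 and Col4a2, which form the network beside laminin, had differences of -0.70 (SE 0.23) and -0.59 (SE 0.21), and Col18a1, the source of endostatin, 0.87 (SE 0.32). The limma adjusted p was 0.305, 0.337 and 0.341. The list's median was -0.04.

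Itgb1, the beta chain shared by most matrix-binding integrins, differed little. Its levels were 3.96, 3.91 and 3.51 in DOX+ and 4.21, 3.84 and 4.04 in DOX-, a difference of -0.24 (SE 0.18, 95% interval -0.67 to 0.20). The common probe shown above gave -0.15, and the beta 1D probe was under the well-above-background level throughout.

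Among laminin-binding chains, Itga6, which pairs with beta 4 in hemidesmosomes and with beta 1 elsewhere, had levels of 3.55, 3.87 and 3.43 in DOX+ and 3.99, 3.91 and 4.37 in DOX-. The groups were apart by the step from 3.87 to 3.91. The difference was -0.47 (SE 0.19, 95% interval -0.93 to -0.01, limma adjusted p = 0.365), and the 4 kept probes gave -0.53 to -0.23. Itga3, the other main epithelial laminin receptor chain, had -0.41 (SE 0.22) with overlapping groups. Itgb4, the hemidesmosome beta chain, had 0.14 (SE 0.18, 95% interval -0.29 to 0.58). Its DOX- levels lay between 3.51 and 3.57, and its DOX+ levels between 3.35 and 3.95.

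The list of hemidesmosome and tetraspanin partners of integrins held 5 genes of 11 at an unadjusted p under 0.05, all lower and all with groups that did not overlap, against 6.32% and 10.9% of all genes. The list was chosen with earlier results of these data known, so this count is no test of the list. Named in full after their values were seen, they are the tetraspanins Tspan1, Tspan8, Cd82 and Cd81, membrane proteins that gather integrins into clusters, and Cd47, a partner of beta 3 integrin. Their differences were -0.76 (SE 0.16), -0.83 (SE 0.18), -0.42 (SE 0.12), -0.31 (SE 0.11) and -0.40 (SE 0.16). The limma adjusted p of Tspan1, the smallest, was 0.194. The hemidesmosome genes Col17a1, Plec and Dst had higher means in DOX+ (0.245, 0.21 and 0.15), as did the tetraspanin Cd9 (0.23). Cd151 had -0.10 and Cd63 -0.21, and the groups of all of these overlapped. The list's median was -0.21, and epithelial markers were lower beside the 5 as given above.

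Itga7, the laminin-binding chain of muscle, had levels of 1.95, 1.80 and 0.59 in DOX+ and 1.37, 0.15 and -0.28 in DOX-. DOX- replicate 1 stood above the other DOX- arrays, and the groups overlapped. The difference was 1.04 (SE 0.54, limma adjusted p = 0.455), and 0.08 with the row blocked. A dimmer probe gave 1.42, but was well above background on only 2 of 3 DOX- arrays. DOX- replicate 1 was the highest array for 12 of the 32 tested members, against 3 to 5 for each other array, a count not taken over all genes. It stood out most from the rest of its group in Itga8, Itgb3 and Itga9. Itga8, an RGD-binding chain of mesenchyme and smooth muscle, was at 0.32 there, against -2.27 and -1.89 in the other DOX- samples and -1.07 to -0.34 in DOX+. Itgb3, the beta chain of platelets, osteoclasts and vessel cells, was at 1.18, against -1.57 and -1.17, and -0.94 to 0.48 in DOX+. Itga9, which pairs with beta 1 in smooth muscle and lymphatic vessels, was at 0.44, against -1.79 on both other DOX- arrays, and -1.83 to -0.89 in DOX+.

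Differences of Itga8, Itgb3 and Itga9 were 0.67 (SE 0.68), 0.23 (SE 0.77) and -0.19 (SE 0.65). Without DOX- replicate 1 they were 1.47, 1.08 and 0.55, and with the row blocked -0.93, -1.48 and -1.68 (limma adjusted p = 0.168 or more without that array). The 10 smooth muscle and pericyte markers, all well above background on all arrays, summed to 315 in DOX- replicate 1, against 63.4 and 69.9 in the other DOX- samples and 84.5 to 185 in DOX+. Without that array the DOX- sums lay below all DOX+ sums. Among the members highest on DOX- replicate 1 were Itga8, Itgb3, Itga9, Itgb1, Itgb5, Lama1 and Nid1. Itga7 was highest on DOX+ replicate 1. The part of muscle in these values was not tested.

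**Figure D3:**
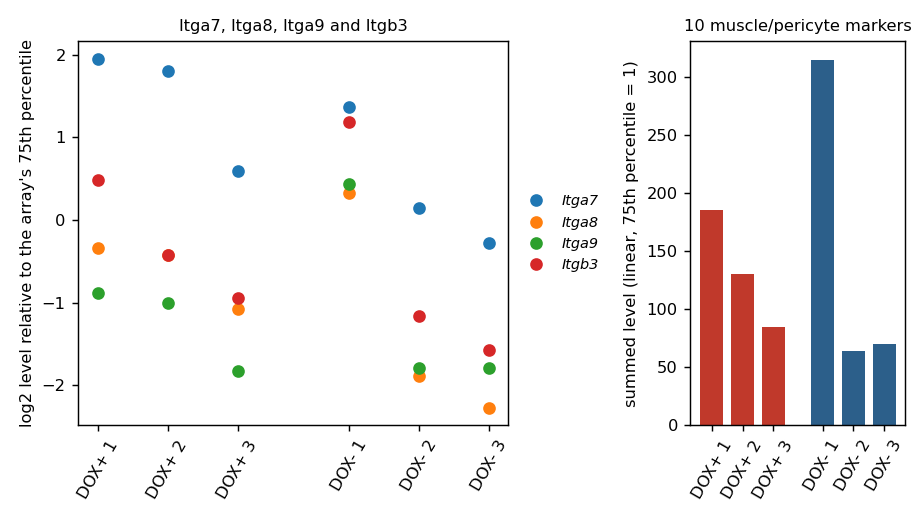
Left, log2 level relative to the array's 75th percentile of Itga7, Itga8, Itga9 and Itgb3 on each of the 6 arrays, and right, the summed linear level of 10 smooth muscle and pericyte markers (red DOX+, blue DOX-). DOX- replicate 1 has the tallest bar, at 315, and the highest Itga8, Itga9 and Itgb3.

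Collagen-binding chains showed no separation. Itga1, of smooth muscle and fibroblasts, had -0.35 (SE 0.22) with 5 probes between -0.37 and -0.02, Itga10 had 0.31 (SE 0.31) and the fibroblast chain Itga11 had 0.20 (SE 0.20). Single arrays carried the last pair: Itga10 had 0.01 without DOX- replicate 3, and Itga11 had 0.01 without DOX+ replicate 2. The 9 fibroblast markers summed to 81.6 to 133 in DOX+ and 101 to 155 in DOX-. Itga2, the collagen receptor chain of epithelia and platelets, could not be tested. Its single probe was well above background on DOX+ replicate 3 and on DOX- replicates 1 and 2 only, with levels of -7.25, -5.79 and -4.51 in DOX+ and -3.96, -3.83 and -6.14 in DOX-. The DOX- group held both the highest arrays and one near the lowest. The remaining RGD-binding chains, which recognise fibronectin and vitronectin, had differences near 0 with intervals of unequal width. Itga5 had -0.003 (SE 0.41, 95% interval -0.996 to 0.99), which was -0.72 with the row blocked, and Itgb5 had 0.04 (SE 0.20, 95% interval -0.45 to 0.53).

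The leukocyte integrins split by sample within DOX-. Itgb2, the beta chain of all leukocyte adhesion integrins of the CD18 family, had levels of -1.62, -2.11 and -1.53 in DOX+ and -0.11, -0.10 and -3.04 in DOX-. DOX- replicates 1 and 2 lay above every DOX+ array and DOX- replicate 3 below every one. Itgax, the chain of dendritic cells and some macrophages, had 0.67, -0.46 and 0.76 in DOX+ and 2.17, 2.28 and -1.19 in DOX-. Itgal, the lymphocyte chain that binds ICAM proteins, had -3.67, -3.79 and -3.65 in DOX+ and -1.65, -1.66 and -4.87 in DOX-, where DOX- replicate 3 was not well above background. Itga4, which binds VCAM1 and fibronectin, had -1.39, -1.22 and -1.60 in DOX+ and -0.18, -0.64 and -2.26 in DOX-. In all 4 chains DOX- replicates 1 and 2 lay above DOX+, and DOX- replicate 3 below it.

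Their differences were -0.67 (SE 0.81) for Itgb2, -0.76 (SE 0.97) for Itgax, -0.98 (SE 0.87) for Itgal and -0.38 (SE 0.53) for Itga4. Without DOX- replicate 3 they were -1.65, -1.90, -2.05 and -0.99, and Itgal passed (limma adjusted p = 0.028), where leaving out other arrays gave Itgal an adjusted p up to 0.918. Another Itgal probe (chr7:134474711-134474767), well above background on all 6 arrays, gave only -0.12. The 7 general leukocyte markers, 6 of them well above background on all arrays and none below it on all, summed to 14.8 to 19.8 in DOX+, 32.5 and 34.7 in DOX- replicates 1 and 2 and 9.70 in DOX- replicate 3. Among them Ptprc, the common leukocyte antigen, had log2 levels between 1.88 and 2.12 on all arrays. Macrophage and monocyte markers, all 8 well above background on all arrays, summed to 44.6 to 52.9 in DOX+ and to 74.6, 64.4 and 28.8 in DOX-. The part of leukocyte RNA in these integrin values was not tested.

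**Figure D4:**
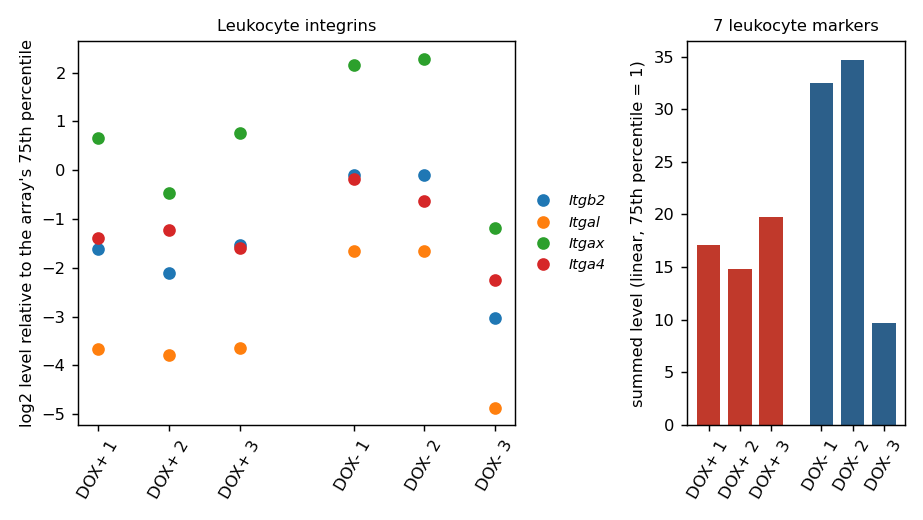
Left, log2 level relative to the array's 75th percentile of Itgb2, Itgal, Itgax and Itga4 on each of the 6 arrays, and right, the summed linear level of 7 leukocyte markers (red DOX+, blue DOX-). DOX- replicates 1 and 2 are highest in every series, with sums of 32.5 and 34.7, and DOX- replicate 3 is lowest, with 9.70.

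For Itgam, the chain of macrophages and neutrophils, the probes differed. The probe used had levels of 4.39, 4.14 and 4.11 in DOX+ and 4.22, 4.06 and 4.06 in DOX-, a range of 0.33, and a difference of 0.10 (SE 0.14). It is the probe that opens with the CA repeat shown above. Of all 56605 probes, 29 hold such a repeat of 20 bases, and all 29 were well above background on all 6 arrays, with a median level of 3.82 against -3.86 over all probes. A second Itgam probe without the repeat (chr7:135212140-135212199) was well above background on DOX- replicates 1 and 2 only. Its levels were -5.36, -5.09 and -4.92 in DOX+ and -4.68, -4.37 and -4.70 in DOX-, so DOX+ lay below DOX- with no overlap, the opposite direction to the brighter probe. Values of the brighter probe are given as that probe's own and not as the level of Itgam.

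Itgae, the alpha chain of the integrin that holds mucosal lymphocytes and mast cells to E-cadherin, had levels of -1.35, -1.18 and 0.78 in DOX+ and -1.86, -1.68 and -2.27 in DOX-. All DOX+ arrays lay above all DOX- arrays, DOX+ replicate 3 by far the most. The difference was 1.36 (SE 0.57, limma adjusted p = 0.382), and 0.68 without DOX+ replicate 3. A second Itgae probe gave 0.70 with overlapping groups. Itgb7, its beta partner, had -0.56, -0.04 and 0.55 in DOX+ and -0.22, -0.18 and -1.76 in DOX-, a difference of 0.70 (SE 0.50) with overlap. Its highest array was again DOX+ replicate 3. The difference was 0.18 without DOX- replicate 3, 0.42 without DOX+ replicate 3 and 0.21 with the row blocked.

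Itga2b, the platelet fibrinogen receptor chain, which mast cells also carry, could not be tested, because its probe was well above background on DOX+ replicates 2 and 3 and on no other array. Its levels were -5.41, -4.52 and -3.13 in DOX+ and -6.19, -6.48 and -6.92 in DOX-, with DOX+ replicate 3 the highest. The 9 mast cell markers summed to 3.56, 7.55 and 56.8 in DOX+ and to 1.76 to 3.46 in DOX-, with 7 of them well above background on all arrays and none below it on all. Means of 8 of the 9 were higher in DOX+, 6 of them with no overlap, where 10.1% of all genes were higher with no overlap. This list too was chosen with earlier results known, so the count is no test of it. The array with the highest Itgae, Itgb7 and Itga2b was the one with the highest mast cell sum. Mcpt1, a mast cell protease, led that sum, with a log2 level of 5.42 there, against -0.72 and 1.32 on the other DOX+ arrays and -4.43 to -2.86 in DOX-. The 5 eosinophil markers, of which Epx was below background on all arrays, also had their highest sum there, 3.96 against 0.51 to 3.20 elsewhere. Siglecf led that sum, at a log2 level of 1.90 there, with a difference of -1.20 (SE 0.86). Il5ra, the only other one tested, had 0.25. The 8 platelet and megakaryocyte markers summed to 1.78 there, the lowest of the 6 arrays, with Gp6 below background on all arrays. The DOX+ range was 1.78 to 3.02 and the DOX- range 1.93 to 3.49. T, NK and innate lymphoid markers summed to 14.4 to 16.7 in DOX+ and 8.69 to 15.7 in DOX-. Thy1 led that sum, with log2 levels of 3.317 to 3.665 in DOX+ and 2.63 to 3.588 in DOX-. Cd8a and Ncr1 were well above background on no array. Of the 10 tested, means were higher in 7 and lower in 3, all with overlapping groups. Gzma of this list was highest on DOX+ replicate 3 (log2 level 0.04), as were Jchain (3.67) and Mzb1 (-1.39) of the B and plasma cell markers. The other tested genes of both lists were highest on other arrays. The 8 B and plasma cell markers summed to 62.7 to 75.2 in DOX+ and 65.3 to 79.0 in DOX-. The part of these cells was not tested.

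**Figure D5:**
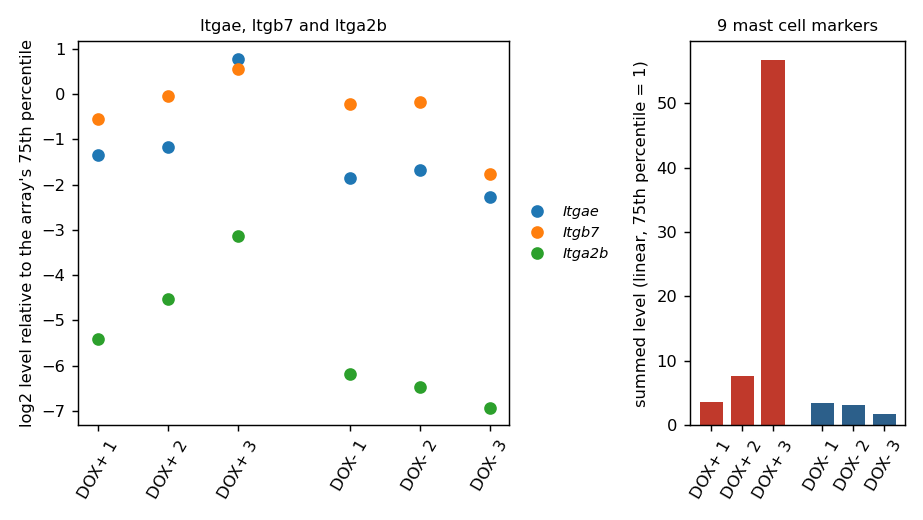
Left, log2 level relative to the array's 75th percentile of Itgae, Itgb7 and Itga2b on each of the 6 arrays, and right, the summed linear level of 9 mast cell markers (red DOX+, blue DOX-). DOX+ replicate 3 is highest in each series, with a sum of 56.8; Itga2b was well above background only on DOX+ replicates 2 and 3.

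The cytoplasmic side of adhesion was mixed. Of 35 genes of integrin-linked adhesion complexes, 34 were tested and 0 passed. At an unadjusted p under 0.05 in the limma fit, 3 were higher and 3 lower, against 7.02% and 6.32% of all genes. The list's median was 0.06. Parvb, a parvin that joins integrin-linked kinase to actin, had a difference of 1.38 (SE 0.28) with 2 of 3 DOX- arrays above background, and the tensins Tns1 and Tns4, which bind beta chain tails, had 0.86 (SE 0.27) and 1.45 (SE 0.54). The 3 lower, named after their values were seen, were Actn4 (-0.49, SE 0.19), Nedd9 (-0.35, SE 0.14) and Vcl (-0.55, SE 0.22), an actin crosslinker, a docking protein and vinculin. Of 23 integrin ligands outside basement membranes, 18 were tested and 0 passed. At that unadjusted p, 2 were higher and 2 lower, against the same shares of all genes. Cdh1, which encodes E-cadherin, the ligand of the Itgae and Itgb7 pair, had -2.01 (SE 0.37, limma adjusted p = 0.172), the matricellular thrombospondin Thbs1 -1.39 (SE 0.31), and the endothelial and platelet ligand Vwf 1.94 (SE 0.51). Fn1, which encodes fibronectin, was the other higher one, named after its value was seen (1.27, SE 0.51). Of 15 other matrix receptors, 0 passed and 0 had an unadjusted p under 0.05 in the limma fit. Those with the smallest p were the collagen receptor Ddr1 (-0.31), the heparan sulfate proteoglycan Gpc3 (1.39) and Mcam (-0.23).

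Of 7 further integrin and laminin genes, 6 were tested and 1 passed, the beta chain Itgb6 (-1.81, SE 0.15, limma adjusted p = 0.0479), but no gene passed with the slide row or the replicate number blocked, or without DOX- replicate 2. The beta chain Itgb8 had 1.85 (SE 0.17, limma adjusted p = 0.0596). Itgav, the alpha chain of both, had -0.72 (SE 0.18, limma adjusted p = 0.224).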

How the data were processed

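Total RNA of 6 samples was labelled with Cy3 and hybridised to 1 array each. Per the file headers, the authors made the spot intensity with Agilent Feature Extraction 10.7.1.1 (9.5.1.1 per the submitters' processing notes), with spatial and multiplicative detrending within each array, on an mm9 design. The deposited files also hold 0 or 1 flags. The authors' processed intensity table, whose columns share a median of 57.79, served as an alternative. Members and gene lists were chosen with earlier results of these data known. From the intensity, log2 values were taken relative to each array's 75th percentile, outlier spots (50 to 64 per array) were left out, and probes well above background on all 3 arrays of a group were kept (31720 of 56605, with 63 of the members' 85). The brightest kept probe stood for each gene. Symbols were updated from the RefSeq table of GRCm38.p6, which changed 0 member probes. DOX+ was set against DOX- by limma 3.58.1 under R 4.3.3 (two-sided, Benjamini-Hochberg). The number of arrays limits precision, with a median SE of 0.185. On simulated data with 20736 genes, changes of 2, 4 and 8 fold were recovered in 36.9%, 74.3% and 87.9% of cases, and 5.1% of calls were false. These rates are not specific to the members, whose SD was larger, so recovery among members may be lower. Named genes were the members and, of each list, those that passed or else those with the smallest p. Alternatives covered background, normalisation, filters, probe choice, names, array weights, slide row, replicate number and each array left out.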

Additional observations from a re-analysis of the deposited data

How the results depend on the processing

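The count of 8 genes past the threshold was 1 with no filter on dim probes, 5 with probes above background on all 6 arrays, 892 with array weights, 0 with the slide row as a block (limma, 1409 at an unadjusted p under 0.05), 2 with quantile normalisation and 2 with the authors' values, and 0 to 30 with single arrays left out (limma, 1554 at an unadjusted p under 0.05 where it was 0, without DOX- replicate 2). Members past it numbered 1 higher and 1 lower with array weights and 0 to 1 lower with single arrays left out. Members at an unadjusted p under 0.05 numbered 1 higher and 5 lower with the slide row, 5 lower with array weights, 1 lower with no filter, with quantile normalisation and with the authors' values, and 1 to 5 higher and 1 to 6 lower with single arrays left out. Array weights were estimated gene by gene, since the REML estimate did not converge. The members' median was -0.34 with the slide row. Deviations from the group mean had correlations of -0.09, -0.13 and -0.02 between samples with the same replicate number. Between samples of different number across the groups they were -0.13 to 0.22. Deviations within so small a group must balance out, so these values cannot tell whether the numbers pair samples. A replicate block gave 0 genes (limma, 2258 at an unadjusted p under 0.05) and 1 member lower. The cause of these moves was not tested.

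Signs of some differences turned, mostly small ones, but Itga8 (0.67), Itga4 (-0.38), Nid2 (0.35) and Lama1 (-0.35) too. With array weights Itga5, Itga9, Itga10 and Itgb5 were 0.19, 0.43, -0.05 and -0.01. With the slide row Itga8, Itgam, Itgb3, Itgb5, Lamb3, Nid1 and Nid2 were -0.93, -0.00, -1.48, -0.31, -0.12, -0.42 and -0.16. With quantile normalisation and the authors' values Lamc1 was 0.07. Single arrays left out gave ranges of -0.99 to 0.05 for Itga4, -0.34 to 0.36 for Itga5, -0.56 to 0.55 for Itga9, -0.30 to 1.08 for Itgb3, -0.15 to 0.21 for Itgb5, -0.66 to 0.17 for Lama1, -0.91 to 0.27 for Lama3, -0.44 to 0.02 for Lama4, -0.33 to 1.12 for Lamb3, -0.19 to 0.23 for Lamc1 and -0.11 to 0.35 for Nid1. Lamb1 kept its direction in every alternative run (-1.94 to -1.17), as did Lamc3 (0.73 to 0.94), Lamb2 (0.38 to 0.99), Lama2 (0.29 to 0.75), Itga6 (-0.60 to -0.25) and Itgae (0.68 to 1.74). All of these but Lama2 had groups that did not overlap, so leaving out, weighting or blocking arrays could not turn their sign. Other members, such as Itga3, Itga7 and Lama5, kept their direction too.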
